A study of Mus musculus with 2 samples.

Results

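Collagen VI, the FACIT collagens and the basement-membrane collagens are non-fibrillar collagens. Of their genes, 8 are described here: Col6a1, Col6a2 and Col6a3, Col12a1 and Col14a1, and Col4a1, Col4a2 and Col15a1. They were taken by gene symbol and are 8 of the 44 collagen genes and of the 31053 genes in the feature table. The libraries came from skin of C57BL/6 mice aged 8 weeks that carried the PdgfraDreER-tdTomato reporter, in which a tamoxifen-inducible recombinase expressed from Pdgfra marks fibroblast-lineage cells with tdTomato. Live dermal cells negative for CD45 and positive for tdTomato were sorted from untreated skin (UT) and from skin under imiquimod for 7 days (IMQ), which induces psoriasis-like inflammation. Both groups carried the same reporter, and each was 1 library of 3′ single-cell RNA sequencing. With 1 library per group the comparison has no replicate check, so no test was made. Every interval below is an exact 95% interval that covers counting error only and holds no variation between mice. Except for shares of barcodes, the intervals also leave out variation from barcode to barcode.

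Collagens share a triple helix of 3 chains. Fibrillar collagens build the banded fibrils of the dermis. Collagen VI, a heterotrimer of the Col6a1, Col6a2 and Col6a3 chains in its common form, makes beaded microfilaments around cells and between fibrils. The FACIT collagens (fibril-associated collagens with interrupted triple helices) sit on fibril surfaces. Col4a1 and Col4a2 chains assemble into the collagen IV network of nearly every basement membrane, and Col15a1 encodes collagen XV, a proteoglycan that links basement membranes to the fibrils beside them.

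In the GENCODE M21 annotation of GRCm38, Col6a1 lies at chr10:76708792-76726168 and Col6a2 at chr10:76595762-76623630, both on the minus strand and 85161 bases apart. Col6a3 lies at chr1:90765923-90843971 on the minus strand, Col12a1 at chr9:79598991-79718831 on the minus strand and Col14a1 at chr15:55307750-55520803 on the plus strand. Col15a1 lies at chr4:47208161-47313167 on the plus strand. Col4a1 (chr8:11198423-11312826, minus strand) and Col4a2 (chr8:11312805-11449287, plus strand) are transcribed away from each other, and their annotated starts overlap by 22 bases. Noncoding genes or pseudogenes on the opposite strand overlap Col12a1, Col14a1, Col4a1, Col4a2 and Col15a1, and reads there could be counted for either gene if the strand was not used. Unclassified genes lie on the same strand within Col6a3 (Gm36970) and Col4a1 (Gm44716), where strand does not separate the reads.

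Promoter windows of 250 bases before to 50 after the gene start were found in RefSeq (GRCm38.p6) for 6 of the 8 members, and for neither Col12a1 nor Col14a1. The Col4a1 window (chr8:11312777-11313076, minus strand) and the Col4a2 window (chr8:11312555-11312854, plus strand) are shown because the pair is read from 1 stretch of DNA. Capitals mark the 78 bases, chr8:11312777-11312854, that both windows hold, each on its own strand.
Col4a1: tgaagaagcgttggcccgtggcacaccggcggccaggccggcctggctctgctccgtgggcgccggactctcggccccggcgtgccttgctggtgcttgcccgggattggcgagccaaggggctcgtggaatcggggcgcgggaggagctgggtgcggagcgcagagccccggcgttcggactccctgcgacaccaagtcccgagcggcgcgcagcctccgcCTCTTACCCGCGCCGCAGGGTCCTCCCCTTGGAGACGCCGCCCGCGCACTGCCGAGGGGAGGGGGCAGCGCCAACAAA
Col4a2: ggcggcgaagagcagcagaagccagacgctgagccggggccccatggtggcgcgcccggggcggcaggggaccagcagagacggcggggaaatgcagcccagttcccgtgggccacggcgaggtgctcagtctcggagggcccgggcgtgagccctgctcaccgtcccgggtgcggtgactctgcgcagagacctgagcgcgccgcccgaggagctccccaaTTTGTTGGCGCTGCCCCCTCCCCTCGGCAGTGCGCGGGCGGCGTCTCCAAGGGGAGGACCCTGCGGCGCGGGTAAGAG
The windows of Col6a1 (chr10:76725995-76726294) and Col6a2 (chr10:76623355-76623654), both minus strand, are shown because these chains of 1 protein differed most in their ratio between the libraries within collagen VI. Capitals mark matches to TGACTCA, an AP-1 site, in Col6a1 and to GGGCGG or its reverse complement, a GC box, in Col6a2.
Col6a1: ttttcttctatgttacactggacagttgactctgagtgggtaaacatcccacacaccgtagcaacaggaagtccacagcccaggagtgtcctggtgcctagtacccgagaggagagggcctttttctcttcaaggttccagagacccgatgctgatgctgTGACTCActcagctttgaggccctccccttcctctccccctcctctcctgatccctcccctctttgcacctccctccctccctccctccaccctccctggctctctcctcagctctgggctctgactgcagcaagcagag
Col6a2: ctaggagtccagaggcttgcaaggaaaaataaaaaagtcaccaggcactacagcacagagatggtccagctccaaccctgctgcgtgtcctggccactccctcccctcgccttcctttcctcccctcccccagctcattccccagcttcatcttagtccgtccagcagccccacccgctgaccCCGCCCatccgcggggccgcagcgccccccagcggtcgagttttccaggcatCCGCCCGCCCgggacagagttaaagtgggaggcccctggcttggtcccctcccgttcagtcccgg
Each motif was searched on both strands. GGGCGG, present in 35.7% of 32851 promoter windows, occurred 1 time in the Col4a1 window, 3 times in the Col4a2 window and 3 times in the Col6a2 window shown. TGACTCA, present in 5.20% of all windows, occurred 1 time in the Col6a1 window and in none of the other member windows. CCAAT, present in 37.4% of all windows, occurred 1 time each for Col4a1 and Col4a2. TATAAA, present in 13.6% of all windows, was in none of the member windows. The Col4a1 and Col4a2 windows had a GC content of 74.0% and 73.7%, against a median of 52.7% over all windows. A match is a description of the letters, not evidence of binding.

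The UT matrix held 1415 barcodes and the IMQ matrix 5047. Barcodes with 200 to 5000 detected genes and at most 5% of UMIs (unique molecular identifiers, 1 per captured transcript) from mitochondrial (mt-) genes numbered 1045 in UT and 571 in IMQ, with 1104798 and 460947 UMIs and medians of 741 and 659 UMIs per barcode. No kept barcode sequence was shared by the libraries, and 1 was shared among all deposited barcodes. The transcript Gm42418 took 1.38% of UMIs in UT and 14.6% in IMQ. With 1 library per group, treatment and library cannot be told apart in this difference. Across 8129 genes with at least 10 UMIs the IMQ to UT ratio had a log2 median of -0.61, and one of -0.35 when mt-, ribosomal protein, Gm42418 and AY036118 UMIs were taken out of the library totals. Ratios are given on the CPM scale (UMIs per 1000000 UMIs of the library) and, where named, relative to this median gene. At least 2 of 7 fibroblast markers were seen in 985 UT and 569 IMQ barcodes. Col1a1, Col1a2 and Col3a1 are among these markers, and collagen genes took 5.55% of UMIs in UT and 10.3% in IMQ. With transcripts this abundant, the count does not identify the cell type.

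Collagen VI transcripts were higher in the IMQ library. The 3 genes together had 516 UMIs in UT, 467 CPM (428 to 509), and 392 UMIs in IMQ, 850 CPM (768 to 939), a log2 ratio of 0.86 (0.67 to 1.06). Col6a1, the chain without which the heterotrimer does not assemble, had 195 CPM in UT and 449 CPM in IMQ, a ratio of 2.31 and a log2 ratio of 1.21 (0.92 to 1.49). Among the 8 members its interval lay farthest above 0, and 96.8% of all genes had a lower ratio. Col6a3, the largest of the 3 chains, whose C-terminal end is cleaved off after secretion, had 112 CPM in UT and 180 CPM in IMQ, a log2 ratio of 0.68 (0.26 to 1.09). Col6a2 had 160 CPM in UT and 221 CPM in IMQ, a log2 ratio of 0.47 (0.10 to 0.83), whose interval covered 0 without barcodes of other cell types (0.35, -0.03 to 0.71) or with at least 500 genes (0.66, -0.05 to 1.32). The counting intervals of the UT and IMQ levels did not overlap for Col6a1 and Col6a3, and those of Col6a2 overlapped slightly. The other collagen VI chains were near absent: Col6a4 had 0 UMIs in both libraries, and Col6a5 and Col6a6 had 1 and 3 UMIs in UT and 0 in IMQ.

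**Figure D1:**
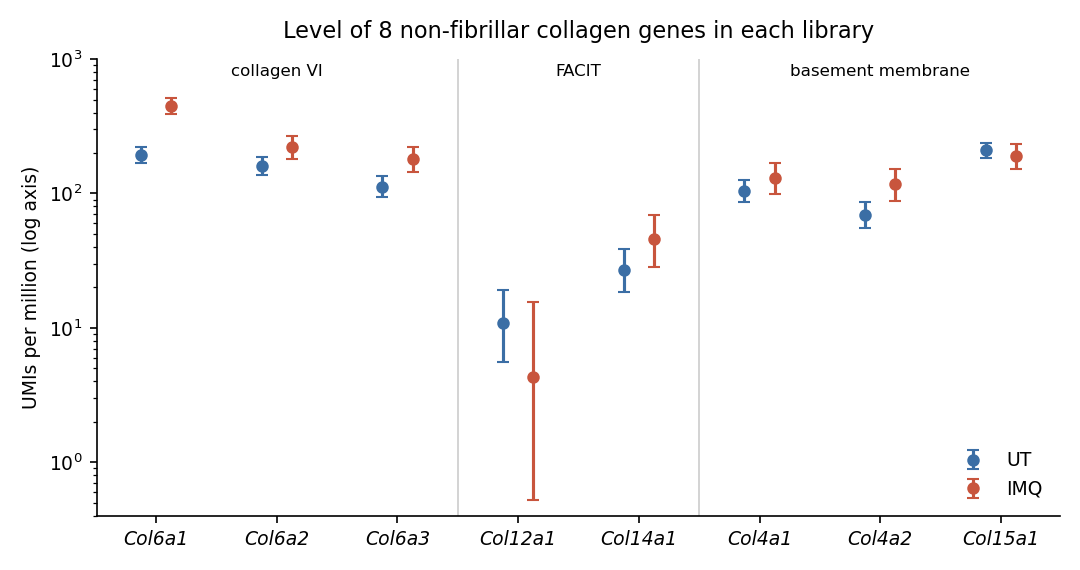
Level of each member in CPM (log axis) in UT (blue) and IMQ (red), with exact Poisson 95% intervals, in barcodes with at most 5% mt- UMIs. Col6a1 stood at 195 CPM in UT and 449 CPM in IMQ, Col15a1 stood at 209 and 189 CPM, and the 2 FACIT genes lay below 50 CPM in both.

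The 2 FACIT members were rare in both libraries. Col16a1, a FACIT gene outside the members, was not: it had 212 CPM in UT and 111 CPM in IMQ. Its log2 ratio was -0.94 (-1.40 to -0.49), so the FACIT sum below does not stand for the whole family. Col14a1, which encodes collagen XIV, a fibril-surface collagen that limits fibril diameter, had 30 UMIs (27.2 CPM) in UT, against 21 (45.6 CPM) in IMQ, a log2 ratio of 0.75 (-0.13 to 1.60). Col12a1, which encodes collagen XII, a FACIT of mechanically loaded tissue, had 12 UMIs (10.9 CPM) in UT, against 2 (4.34 CPM) in IMQ, a log2 ratio of -1.32 (-4.53 to 0.84). Both intervals covered 0 in CPM. The 2 genes summed to 38.0 CPM in UT and 49.9 CPM in IMQ, a log2 ratio of 0.39 (-0.41 to 1.16). With TMM scaling, which sets most genes near equal between libraries, the log2 ratio was 1.23 (0.35 to 2.08) for Col14a1 and 0.88 (0.07 to 1.64) for the sum, so whether these intervals cover 0 depends on the scaling.

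The basement-membrane genes differed in their ratios, with Col4a2 higher in IMQ and Col15a1 near the same level. Col4a2 had 69.7 CPM in UT and 117 CPM in IMQ, a log2 ratio of 0.75 (0.22 to 1.27). Col4a1, read from the other strand of the same promoter stretch, had 105 CPM in UT and 130 CPM in IMQ, a log2 ratio of 0.31 (-0.16 to 0.77). Its interval lay above 0 under 6 of 11 other barcode filters and scalings, among them TMM scaling (0.79, 0.32 to 1.25), and below 0 per collagen UMIs (-0.58, -1.06 to -0.12). The ratio of Col4a1 to Col4a2 UMIs was 1.51 in UT and 1.11 in IMQ, and the log2 change of that ratio, -0.44 (-1.15 to 0.27), covered 0, so the pair could not be told apart. Col15a1 was the most abundant member in UT, with 231 UMIs and 209 CPM, and had 87 UMIs and 189 CPM in IMQ, a log2 ratio of -0.15 (-0.52 to 0.21). Between Col4a2 and Col15a1 the ratio did differ, by a log2 value of 0.90 (0.25 to 1.54). The 3 genes summed to 384 CPM in UT and 436 CPM in IMQ, a log2 ratio of 0.18 (-0.07 to 0.43).

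In order of level, Col15a1, Col6a1 and Col6a2 led in UT, and the intervals of Col15a1 (183 to 238 CPM) and Col6a1 (169 to 222 CPM) overlapped. In IMQ Col6a1 stood alone, with a lower limit of 390 CPM against an upper limit of 269 CPM for Col6a2, the next gene. The intervals of Col6a2, Col15a1 and Col6a3 overlapped in IMQ, as did those of Col4a1 and Col4a2. These orders compare counts of transcript ends, which the 3′ method takes 1 per molecule, and were not divided by length.

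Read against all genes, 1 of the 8 members, Col6a1, was at least 2-fold higher in IMQ on the CPM scale, where 4.03% of 8129 genes were, and 1, Col12a1, was at least 2-fold lower, where 32.1% of genes were. Relative to the median gene, 5 of 8 were at least 2-fold higher (Col6a1, Col4a2, Col14a1, Col6a3 and Col6a2), against 12.7% of genes, and none was 2-fold lower, against 14.9%. The median log2 ratio of the members was 0.57, or 1.19 relative to the median gene. With the limit on mt- UMIs raised to 10%, which left 1301 UT and 1043 IMQ barcodes, no member was 2-fold higher in CPM (3.78% of 8833 genes) and Col12a1 alone was 2-fold lower (34.7%). Relative to the median gene, 6 were then 2-fold higher (12.1%) and none is counted as lower, Col12a1 lying at the limit (12.8%). At that limit the log2 ratio was 0.96 (0.74 to 1.19) for Col6a1, 0.48 (0.21 to 0.75) for Col6a2 and 0.77 (0.44 to 1.10) for Col6a3. Col14a1, at 0.75 (0.07 to 1.43), then lay above 0 and Col15a1, at -0.30 (-0.59 to -0.01), below 0.

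**Figure D2:**
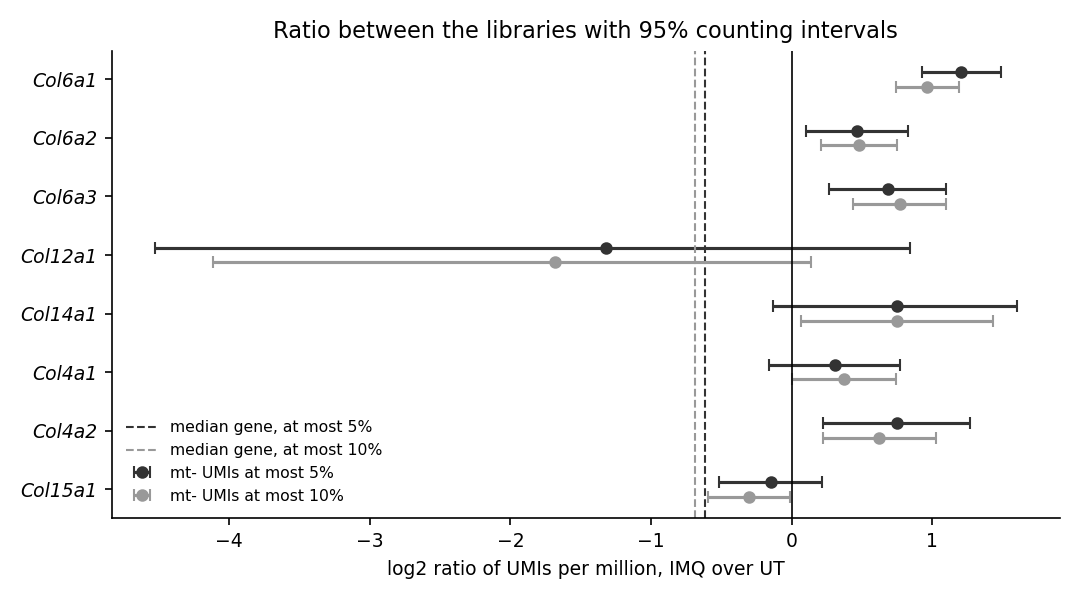
Log2 ratio of CPM, IMQ over UT, for each member with exact 95% counting intervals, in barcodes with at most 5% (dark) or 10% (grey) mt- UMIs, with the median of all genes dashed at -0.61 and -0.69. The 3 collagen VI genes and Col4a2 lie above 0 at both limits, and the Col12a1 interval spans from -4.53 to 0.84.

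The major fibrillar collagens had higher ratios than every member but Col6a1. All collagen genes together took 5.55% of UMIs in UT and 10.3% in IMQ, and Col1a1, Col1a2 and Col3a1 made up 96.1% and 97.4% of these. The log2 ratio was 0.88 (0.86 to 0.91) for Col1a1, 0.92 (0.89 to 0.95) for Col1a2 and 0.98 (0.94 to 1.02) for Col3a1. The 8 members were 982 UMIs, or 1.60% of collagen UMIs, in UT and 616 UMIs, or 1.29%, in IMQ. Set against Col1a1, the major chain of the dermal fibril, Col6a1 was higher in IMQ by a log2 difference of 0.32 (0.04 to 0.61), which covered 0 at the 10% limit (0.11, -0.12 to 0.34). Col15a1 was lower against Col1a1 by a log2 difference of -1.03 (-1.41 to -0.67), Col4a1 by -0.57 (-1.05 to -0.11) and Col6a2 by -0.42 (-0.79 to -0.06), and these 3 intervals lay below 0 at the 10% limit as well. For Col6a3, Col4a2 and Col14a1 the difference from Col1a1 covered 0. Scaled to collagen UMIs, the collagen VI sum had a log2 ratio of -0.03 (-0.22 to 0.16), and the basement-membrane sum one of -0.71 (-0.96 to -0.46).

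The make-up of the collagen VI transcripts differed between the libraries. Col6a1 was 41.7% of collagen VI UMIs in UT (37.4 to 46.1) and 52.8% in IMQ (47.7 to 57.8). Col6a2 was 34.3% in UT (30.2 to 38.6) and 26.0% in IMQ (21.7 to 30.7), and Col6a3 was 24.0% in UT and 21.2% in IMQ. There were 1.21 Col6a1 UMIs per Col6a2 UMI in UT and 2.03 in IMQ, a log2 change of 0.74 (0.28 to 1.21), and 0.48 (0.13 to 0.84) at the 10% limit. Because this ratio is taken within each library, it does not depend on the scaling. It did differ with barcode quality. In barcodes with 5% to 10% mt- UMIs Col6a1 was 47.1% of collagen VI UMIs in UT and 45.7% in IMQ, and above 10% it was 41.5% and 47.0%. Among kept barcodes with 300 to under 500 genes it was 46.6% and 47.8%. Among all 8 members, the Col15a1 share was 23.5% in UT (20.9 to 26.3) and 14.1% in IMQ (11.5 to 17.1), and the Col6a1 share 21.9% and 33.6%.

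**Figure D3:**
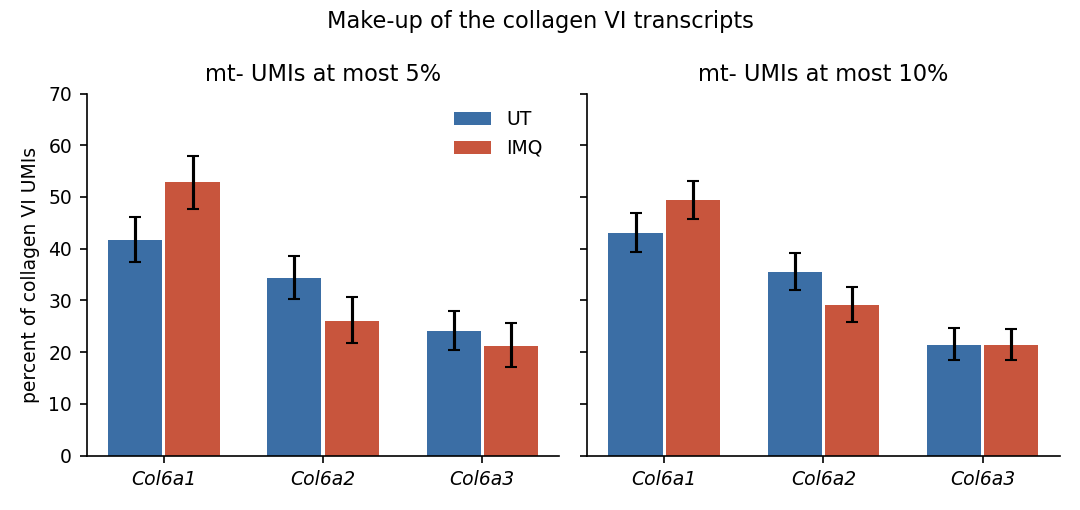
Percent of collagen VI UMIs from each of the 3 genes in UT (blue) and IMQ (red), with exact binomial 95% intervals, in barcodes with at most 5% mt- UMIs (left) or 10% (right). Col6a1 stands at 41.7% and 52.8% on the left and at 43.0% and 49.4% on the right.

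The higher collagen VI level in IMQ was seen at each number of detected genes but not at each mt- share. Among kept barcodes with 200 to under 300 genes, the sum was 325 CPM in UT and 766 CPM in IMQ, a log2 ratio of 1.23 (0.73 to 1.77). With 300 to under 500 genes it was 409 and 790 CPM, a log2 ratio of 0.95 (0.60 to 1.30), and with 500 to 5000 genes 529 and 1184 CPM, a log2 ratio of 1.16 (0.82 to 1.49). In both libraries the level was highest in the class with the most genes. By mt- share, the log2 ratio was 0.65 (0.38 to 0.92) up to 2.5% and 1.09 (0.81 to 1.37) from 2.5% to 5%. In barcodes with 5% to 10% mt- UMIs, which the 5% limit leaves out, the sum was 821 CPM in UT and 940 CPM in IMQ, a log2 ratio of 0.19 (-0.07 to 0.46). Above 10% it was 1437 CPM in 48 UT barcodes and 1181 CPM in 382 IMQ barcodes, a log2 ratio of -0.28 (-0.75 to 0.22). Over the 4 mt- classes in rising order, the UT level was 487, 443, 821 and 1437 CPM and the IMQ level 766, 944, 940 and 1181 CPM. Pooled with no mt- limit, the log2 ratio was 0.83 (0.70 to 0.97). The part of mt- share in the ratio was not tested.

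For the basement-membrane sum, each class of detected genes gave a higher level in IMQ although the pooled ratio covered 0. It was 167 and 371 CPM with 200 to under 300 genes, a log2 ratio of 1.15 (0.44 to 1.92), 283 and 395 CPM with 300 to under 500 genes, 0.48 (0.01 to 0.94), and 486 and 682 CPM with 500 to 5000 genes, 0.49 (0.05 to 0.90). Barcodes with 500 or more genes, where the level was highest in both libraries, numbered 303 of 1045 in UT and 37 of 571 in IMQ. Col15a1 differed among these classes, with a log2 ratio of 1.05 (0.10 to 2.12) at 200 to under 300 genes, 0.05 (-0.63 to 0.70) at 300 to under 500 and -0.41 (-1.25 to 0.34) above. By mt- share the basement-membrane ratio was 0.39 (0.05 to 0.72) up to 2.5% and covered 0 in each higher class.

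**Figure D4:**
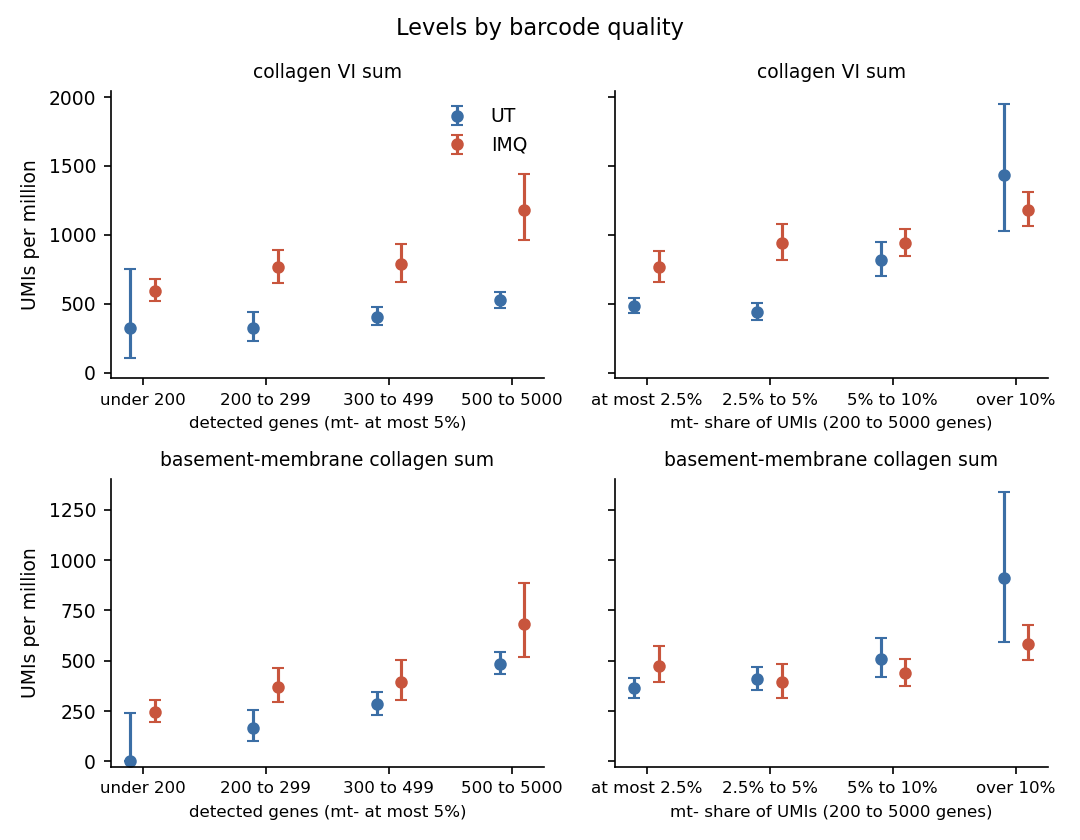
CPM of the collagen VI sum (top) and basement-membrane sum (bottom) by number of detected genes (left, at most 5% mt- UMIs) and by mt- share (right, 200 to 5000 genes) in UT (blue) and IMQ (red), with exact Poisson 95% intervals. The collagen VI sum is higher in IMQ from 200 genes upwards (325 and 766 CPM at 200 to under 300), while the libraries overlap at 5% to 10% mt- UMIs (821 and 940 CPM).

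Most barcodes held no UMI of any one member. After each barcode was thinned to 400 UMIs, which left out 73 UT and 33 IMQ barcodes with fewer, Col6a1 was seen in 7.00% of 972 UT barcodes (5.47 to 8.78) and 14.5% of 538 IMQ barcodes (11.6 to 17.8). Any collagen VI gene was seen in 13.2% (11.1 to 15.5) and 24.5% (21.0 to 28.4), Col4a2 in 1.75% and 4.09%, and Col4a1 in 3.09% and 3.72%. Without thinning, a collagen VI UMI was in 24.6% of UT and 39.1% of IMQ barcodes, a Col6a1 UMI in 14.0% and 25.6%, and a Col4a2 UMI in 5.65% and 6.83%. The Col4a1 shares were then 6.99% and 6.83%, in the other order from the thinned ones. Col15a1 was seen in 5.45% of UT and 7.81% of IMQ barcodes when thinned and in 13.4% and 13.0% when not. Its CPM had the order of the unthinned shares and not of the thinned ones, so no order is read from these shares. Free RNA in droplets can also give UMIs, and its part in these shares was not tested. Of 60 UT barcodes with fewer than 2 fibroblast markers (median 498.5 UMIs), 6 (10.0%, 3.76 to 20.5) held a collagen VI UMI, at 90.6 CPM. In the 985 with 2 or more (median 759 UMIs) the share was 25.5%, at 495 CPM. In IMQ there were 2 barcodes with fewer than 2 such markers, too few for this comparison. The 1132 IMQ barcodes with under 200 genes and at most 5% mt- UMIs held the collagen VI genes at 596 CPM (519 to 681), against 850 CPM in the kept barcodes.

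Single barcodes carried little of the collagen VI sum, but more of the sparse FACIT sum, where 1 IMQ barcode held 13.0% of the UMIs. The barcode with the most collagen VI UMIs held 16 of 516 in UT and 22 of 392 in IMQ, and without it in each library the log2 ratio was 0.85 (0.65 to 1.05). Of barcodes with a Col6a1 UMI, 71.2% in UT and 74.7% in IMQ held just 1. Col15a1 was spread less evenly in UT, where 23 barcodes held 3 or more UMIs and the variance was 2.48 times the mean, than in IMQ, where 3 did and it was 1.22 times the mean. These counts were not thinned. UT barcodes with a Col15a1 UMI had a median of 1224.5 UMIs, against 698 without, and IMQ barcodes 772.5 against 653. The part of depth in this spread was not tested.

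Correlations between the members from barcode to barcode were near 0, where sparse counts keep them low. Over the 28 pairs, Pearson's r on log(1 + UMIs) at 400 UMIs per barcode ran from -0.03 to 0.16 in UT, with a median of 0.02, and from -0.06 to 0.15 in IMQ, with a median of -0.01. These points share a library and 1 depth, and in counts this sparse such values are no finding. At that depth, 17 of 28 pairs in UT and 13 of 28 in IMQ were seen together more often than the product of their shares. At the 10% limit 23 of 28 and 16 of 21 were. For many pairs that product was under 1, so 1 shared barcode put them above it. Col12a1 and Col14a1 in UT, with 1 barcode against 0.04 at the 5% limit, were such a pair. No other gene pairs were counted for comparison, and no finding is read from these counts. Col6a1 and Col6a2 were seen together in 8 UT barcodes against 3.36 by that product, and in 8 IMQ barcodes against 6.09. For Col4a1 and Col4a2 it was 1 against 0.52 in UT and 3 against 0.82 in IMQ. Before thinning, 21 of the 73 UT barcodes with a Col4a1 UMI also held a Col4a2 UMI (28.8%), against 3.91% of barcodes without one, and in IMQ 11 of 39 did (28.2%), against 5.26%. Likewise 42 of 146 Col6a1 barcodes held a Col6a2 UMI in UT (28.8%, against 8.57%) and 32 of 146 in IMQ (21.9%, against 11.8%). Deeper barcodes hold more of every gene: the median was 1428 UMIs in UT barcodes with a Col4a1 UMI and 710.5 in those without.

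By mean r over the 2 libraries, of 296 genes seen often enough to be ranked, those most like the collagen VI sum were Gsn (0.13), Col1a2 (0.13), Col1a1 (0.11), Efemp1 (0.11) and Mmp2 (0.11). For the basement-membrane sum they were Col1a2 (0.18), Col1a1 (0.18), Col3a1 (0.17), Aebp1 (0.15) and Gsn (0.13). For the FACIT sum, seen in 12 UT and 9 IMQ thinned barcodes, the highest were mt-Nd3 (0.08), Apod (0.07) and Aebp1 (0.07). The 2 libraries could differ: r was 0.01 in UT and 0.16 in IMQ for mt-Nd3, and 0.06 and 0.15 for Efemp1 with collagen VI. All are the top of 296 small values in sparse counts, and no finding is read from these ranks.

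Barcodes with a UMI of Pi16, a marker of fascial and adventitial fibroblasts, held more collagen VI and basement-membrane transcripts than the rest in both libraries. In UT, 209 such barcodes had the collagen VI sum at 591 CPM against 424 CPM in the other 836, a log2 ratio of 0.48 (0.20 to 0.75), and the basement-membrane sum at 474 against 353 CPM, 0.43 (0.12 to 0.73). In IMQ, 47 such barcodes had collagen VI at 1440 CPM against 779 CPM in the other 524, a log2 ratio of 0.89 (0.50 to 1.26). Their basement-membrane sum was 980 against 370 CPM, a log2 ratio of 1.41 (0.91 to 1.88), with Col4a1 at 1.58 (0.65 to 2.43), Col4a2 at 1.52 (0.53 to 2.43) and Col15a1 at 1.20 (0.38 to 1.95). All 6 members outside the FACIT pair had intervals above 0 in IMQ, as did 6.17% of 3499 genes with at least 10 UMIs there, and 3 of 8 did in UT (Col6a3, Col4a1 and Col15a1), as did 6.81% of 7352 genes. Rarer genes have wider intervals, so these shares move with the level as well. Whether the 2 libraries differ in this was not tested. Barcodes with a Pi16 UMI were deeper in UT, with a median of 1044 UMIs against 687.5 without, while in IMQ the medians were 661 and 658.5.

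**Figure D5:**
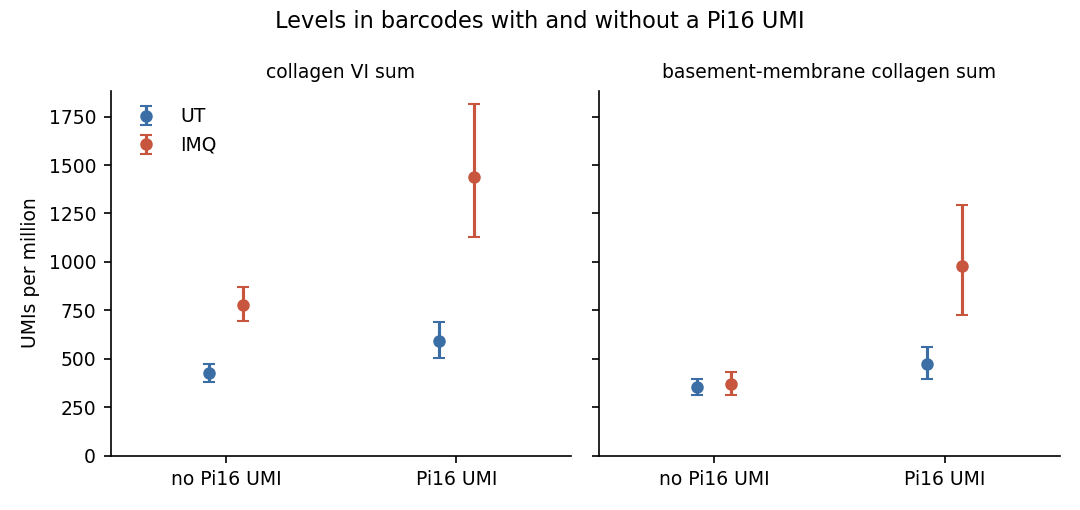
CPM of the collagen VI sum (left) and basement-membrane sum (right) in barcodes without and with a Pi16 UMI, in UT (blue) and IMQ (red), with exact Poisson 95% intervals. The 47 IMQ barcodes with a Pi16 UMI stand at 1440 and 980 CPM, against 779 and 370 CPM in those without.

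Of the other single-gene gates, Mmp3 gave larger log2 ratios than Pi16 for both sums in UT, with overlapping intervals, and smaller ones in IMQ. UT barcodes with a UMI of Mmp3, a matrix metalloproteinase, numbered 146 and had the collagen VI sum at 674 against 426 CPM, a log2 ratio of 0.66 (0.36 to 0.96), and the basement-membrane sum at 548 against 351 CPM, 0.64 (0.30 to 0.97). In the 148 IMQ barcodes with an Mmp3 UMI both intervals covered 0, with log2 ratios of 0.04 (-0.29 to 0.36) and 0.13 (-0.33 to 0.58). UT barcodes with a UMI of Crabp1, a retinoic acid-binding protein, numbered 160 and had Col4a1 at 190 against 85.0 CPM, a log2 ratio of 1.16 (0.57 to 1.73). Col4a1 was the 1 of 8 members with an interval above 0 in that gate, and was named for that. There 5 members were higher, and the lowest ratio was -0.40. Depth was not matched in these gates. The share of all genes was computed for the Pi16 gate alone, so no finding about Col4a1 is read from this interval. In IMQ, 81 barcodes with a Cthrc1 UMI and 278 with a Ctla2a UMI had collagen VI and basement-membrane sums whose log2 ratios to the other barcodes covered 0. Col4a1 was lower with a Ctla2a UMI, at -0.82 (-1.67 to -0.01), the 1 of 8 members with an interval below 0 there. It was named for that, with no share of all genes beside it, so no finding is read from this interval. The remaining gates held few barcodes: 9 with Crabp1 in IMQ, 24 with Coch in UT and 6 in IMQ, and 3 with Cthrc1 in UT. In the 9 IMQ barcodes with a Crabp1 UMI collagen VI had a log2 ratio of -1.04 (-2.05 to -0.18), and in the 6 with a Coch UMI one of 0.97 (0.27 to 1.59). Over kept IMQ barcodes the variance of collagen VI UMIs was 2.99 times the mean. With so few barcodes these intervals are therefore too narrow, and no difference is read from them.

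Collagen IV is also made by vessel cells and keratinocytes. The 10 endothelial markers summed to 52.5 CPM in UT and 30.4 CPM in IMQ, with Tie1 and Lyve1 at 0 UMIs in both, and the 8 mural cell markers to 1181 and 718 CPM, with Rgs5, Myh11 and Higd1b at 0 in both. Ndufa4l2 alone gave 1018 and 644 CPM of the mural sum, and Kcnj8 had 34.4 and 45.6 CPM. The 7 keratinocyte markers summed to 1312 and 17.4 CPM, and the 10 myeloid and class II markers to 1644 and 239 CPM. The T cell, Schwann, melanocyte, adipocyte and skeletal muscle lists each summed to at most 67.3 CPM in either library. At the 10% limit the endothelial list summed to 44.8 CPM in UT and 152 CPM in IMQ, and its part in the collagen IV ratios at that limit was not tested. At least 2 markers of 1 other type were seen in 84 UT and 22 IMQ barcodes, and without these the log2 ratio was 0.75 (0.55 to 0.95) for collagen VI and 0.10 (-0.16 to 0.35) for the basement-membrane sum. The 84 UT barcodes held collagen VI at 188 CPM, below the 510 CPM of the others, a log2 ratio of -1.44 (-2.04 to -0.89).

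The lists of genes that work with these collagens had medians near 0 on the CPM scale, below those of the collagen VI genes. Their counts past 2-fold in CPM are read against 4.03% of 8129 genes higher and 32.1% lower. Of 18 collagen VI partners and receptors, 11 had at least 10 UMIs, none was 2-fold higher or lower in CPM, and the median log2 ratio was -0.09. Decorin (Dcn), which binds collagen VI and fibrils, had a log2 ratio of -0.47 (-0.51 to -0.44), lumican (Lum) 0.12 (0.04 to 0.20), biglycan (Bgn) 0.17 (0.03 to 0.30) and the integrin chain Itgb1 -0.75 (-1.12 to -0.39). Of 21 basement-membrane partners, 12 were measured, 1 was 2-fold higher and 1 lower, with a median of -0.12. The one higher was Sparc, a matricellular protein that binds collagen IV, at 1.11 (1.08 to 1.14), and the one lower Fbln2, a fibulin, at -1.01 (-1.38 to -0.64). Fbln1 had 0.66 (0.32 to 1.00) and Smoc2 0.13 (-0.09 to 0.34).

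Of 12 fibril-surface partners, 10 were measured, 1 was 2-fold higher (4.03% of all genes), Aspn at 1.11 (0.93 to 1.29), and 2 were lower (32.1% of all genes), with a median of -0.03. The 2 lower genes, named after their values were seen, were Fmod, with 43 UMIs in UT and 2 in IMQ, and Thbs1, with 30 and 5. Dcn and Lum belong to this list as well. Dpt, dermatopontin, had a log2 ratio of -0.18 (-0.34 to -0.02). Of 17 genes of procollagen maturation, 13 were measured, none was past 2-fold, and the median was -0.05. Serpinh1, the collagen chaperone, had -0.12 (-0.24 to 0.01), Tgfbi, a collagen-binding protein, -0.05 (-0.17 to 0.07), and Ppib and P4hb, a prolyl isomerase and a prolyl hydroxylase subunit, -0.63 (-0.80 to -0.45) and -0.63 (-1.01 to -0.27). Of 28 other collagen genes 6 were measured, with a median of -0.57, and 1 was 2-fold higher (Col4a4, 6 UMIs in UT and 8 in IMQ) and 1 lower (Col23a1). Col16a1, another FACIT, had 234 UT and 51 IMQ UMIs, which gave -0.94 (-1.40 to -0.49), and Col18a1, whose product is close to collagen XV, 86 and 18 UMIs, a log2 ratio of -0.995 (-1.82 to -0.25). Col23a1, a transmembrane collagen, had 59 and 8 UMIs, a log2 ratio of -1.62 (-2.90 to -0.55), and Col13a1 13 and 5 UMIs. Of 8 fibrillar collagens 6 were measured, with a median of 0.75, none 2-fold higher and 1 lower, Col5a3, with 62 and 3 UMIs. Col5a2, the fourth by UMIs with 635 and 318, had a log2 ratio of 0.26 (0.06 to 0.46), and Col5a1 one of 0.61 (0.35 to 0.88). At the 5% limit these list medians lay above the median gene at -0.61, and at the 10% limit the other collagens, at -0.70, lay below it at -0.69.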

How the data were processed

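Dermal cells of 1 untreated and 1 imiquimod-treated group were profiled by single-cell RNA sequencing, and the authors deposited 1 matrix of UMI counts per library, not normalized. Per the file headers, Cell Ranger 3.0.0 (UT) and 3.1.0 (IMQ) wrote the counts, and the submitters' processing notes name the build mm10. Even unfiltered, the deposited IMQ matrix has fewer barcodes than the study's number of IMQ cells after filtering, and may differ from the matrix used there. In UT, the study's gene and mt- limits kept 1045 barcodes here, also fewer than its number of UT cells. Whether counting used strand is not given in the sources used here.

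Barcodes with 200 to 5000 genes and at most 5% mt- UMIs were kept, as in the study's methods, with 10% as an alternative. Doublets were not removed in the main values, whereas the study removed those called by DoubletFinder. Counts were summed per library (1104798 UMIs in UT, 460947 in IMQ) and divided by the total to give CPM. Levels have exact Poisson, shares exact Clopper-Pearson and ratios exact conditional binomial 95% intervals (scipy 1.17.1), and cells were not treated as replicates. Code was tested on simulated data. Alternatives were Scrublet (scanpy 1.11.5), TMM factors (edgeR 4.0.16), median-of-ratios factors, other denominators and other barcode filters. Genes with at least 10 UMIs over both libraries were compared.

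All 8 members were reported, and of each list of partner genes the counts, the median and the 4 genes with the most UMIs. The 5 genes most like each sum were ranked by Pearson's r among genes seen in at least 10% of thinned barcodes in each library. Other genes, such as further collagens of the same families, were named after their values were seen. The members and lists were chosen with earlier results of these data known.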

Additional observations from a re-analysis of the deposited data

How the results depend on the processing

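The log2 ratio of the collagen VI sum, 0.86, stayed between 0.71 and 0.88 with 10% or no limit on mt- UMIs, all barcodes, doublets removed, other cell types left out or the top barcode left out. These values pool the mt- classes. Within barcodes of 5% to 10% mt- UMIs alone the ratio was 0.19 (-0.07 to 0.46), and above 10% it was -0.28 (-0.75 to 0.22). The pooled ratio was 1.16 with at least 500 genes, 1.35 with TMM, 1.34 with median-of-ratios factors and 1.12 without mt-, ribosomal protein, Gm42418 and AY036118 UMIs in the denominator. Per collagen UMIs it turned to -0.030, as did Col6a2 to -0.43, Col6a3 to -0.21, Col4a2 to -0.15, Col4a1 to -0.58 (-1.06 to -0.12) and Col14a1 to -0.15, since that denominator itself was higher in IMQ. The FACIT sum became -0.50 on that scale, and its interval lay above 0 with TMM (0.88) and median-of-ratios factors (0.87). Col14a1 had an interval above 0 under 5 of 11 alternatives (1.23 with TMM, 1.01 with the reduced denominator) and Col4a1 under 6 (0.79 with TMM, 1.08 with at least 500 genes). The basement-membrane sum, 0.18, was 0.49 with at least 500 genes, 0.67 with TMM, 0.66 with median-of-ratios factors, 0.44 with the reduced denominator and -0.71 per collagen UMIs, so its direction rests on the scaling. Col6a1 had an interval above 0 under all 11 alternatives (0.31 to 1.69), Col6a2 under 8, and Col15a1 ran from -1.04 to 0.34. The median of all genes was -0.61 in CPM, -0.13 with TMM, -0.14 with median-of-ratios factors and -0.35 with the reduced denominator. Without the minimum of 10 UMIs, 1556 genes in place of 1030 were 2-fold higher relative to the median gene. No paired analysis was possible because each group had 1 library. Depth limits Col12a1 and Col14a1, with 12 and 30 UMIs in UT, and treatment cannot be told apart from the mouse, the library or the Cell Ranger version.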
